A study of Mus musculus with 12 samples.

Results

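From synthesis to export, 30 genes that make, move, store and sense cholesterol were followed among the 23420 genes of the deposited count table. They were chosen by name as genes of this pathway. They comprise 7 enzymes that lead from acetyl-CoA to mevalonate and the isoprenoids, 10 enzymes that lead from squalene to cholesterol, 5 genes that control the SREBP factors, 6 genes of uptake, transport, storage and efflux, and the genes of the 2 LXR receptors. RNA had been sequenced from monocytic myeloid-derived suppressor cells (M-MDSCs), immature monocyte-like cells sorted by flow cytometry from bone marrow as CD11b+Ly6G-Ly6Chi. Every mouse was a C57BL/6JNIA male, 6 being aged (24 months) and 6 young (6 months), and each gave 1 library. No treatment or engineered allele is named for either group. Column names carry sample numbers that place every young library before the aged ones, and what these numbers stand for is not stated, so a batch that followed them and age cannot be told apart.

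Cholesterol is made from acetyl-CoA by a long chain of enzymes, and the chain also yields the isoprenoids that anchor proteins to membranes. When sterols in the endoplasmic reticulum are low, SCAP carries SREBP-2 to the Golgi, where it is cut and released to raise the synthesis enzymes, while the INSIG proteins hold the complex back. When oxidized sterols are high, the LXR receptors raise efflux pumps such as ABCG1 and ABCA1, and macrophages rely on this arm to clear lipid taken up from other cells.

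Between 8737941 and 16300374 fragments per library were counted in aged mice and between 4613239 and 9079237 in young mice. Transcripts of the sort markers were present, with Itgam (CD11b) at 2657 to 3476 CPM in aged and 3266 to 3538 CPM in young mice and Ly6c2 at 605 to 799 and 366 to 594 CPM. CPM are counts relative to the library total after TMM scaling, which evens out differences in RNA composition. Transcripts of 8 neutrophil marker genes, granule genes among them, were very abundant, summing to 87605 to 105319 CPM in aged and 67713 to 93251 CPM in young mice. The sum of 8 monocyte genes was 3941 to 4902 and 4388 to 4607 CPM. Most of it came from Itgam, while Csf1r had means of 141 and 134 CPM and Ccr2 of 31.2 and 37.1 CPM in aged and young mice. These levels go against the label of a Ly6G- sort, and M-MDSC is used here as the label of the libraries. By edgeR, 4 of the 8 neutrophil markers and 3 of 3 tested neutrophil precursor markers were higher in aged mice, beside 22.4% of all genes, but after a correction for gene length none of the 4 neutrophil calls was kept (Camp, Ngp, Lcn2 and Retnlg at 0.04, 0.14, 0.02 and 0.12 beside a median of 0.10 for all genes). The dendritic cell gene Clec9a was lower (log2 fold change -2.45). Of the 9 listed markers of resident macrophages, 8 passed the filter on low counts, and edgeR called all of these 8 higher in aged mice. The summed level of the 9 ranged from 84.4 to 1007 CPM in aged mice, highest in aged mouse 1, and from 71.2 to 88.8 CPM in young mice. In bulk RNA, fewer cells of a type and less RNA per cell cannot be told apart.

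Of the 30 cholesterol genes, 29 passed the filter on low counts, and Nr1h3 did not. Among these 29, Abcg1, Npc2 and Ebp were higher and Acat2 was lower in aged mice by edgeR's quasi-likelihood test, its p-values being adjusted by Benjamini-Hochberg over the 9742 genes that passed. These 4 are 13.8% of the cholesterol genes tested, whereas 45.4% of all genes tested passed the same threshold of 0.05 (22.4% higher and 23.0% lower). The median log2 fold change of the 29 genes was 0.08, beside 0.01 for all genes tested, and single values ran from -0.96 to 0.55. None of the 29 genes had values in aged mice that lay wholly apart from those in young mice, beside 21.8% of all genes tested (edgeR gave 6 of the 29 an unadjusted p under 0.05, and DESeq2 also called 4 of these 29, beside 37.2% of all genes). The plot of fold changes by role shows open points on both sides of 0, with 18 of the 29 above it.

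**Figure D1:**
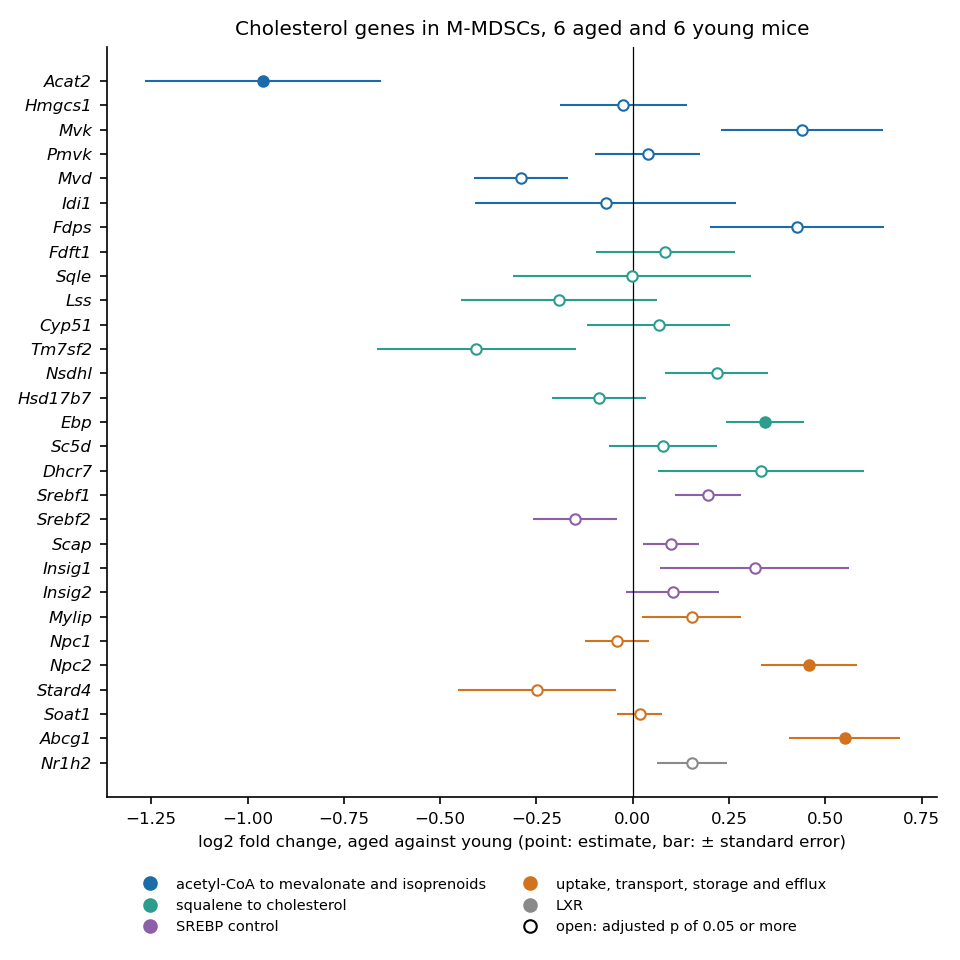
Log2 fold change in aged against young M-MDSCs for the 29 cholesterol genes tested (horizontal axis), with bars for ± the standard error and colours for the role. Filled points passed the adjusted threshold of 0.05, which were Acat2 (-0.96), Ebp (0.34), Npc2 (0.46) and Abcg1 (0.55).

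The levels of the 30 genes spread widely, and in their order no gene moved by more than 4 places between the ages. Per kilobase of exon, Soat1, Srebf2 and Nr1h2 had the 3 highest mean levels in both ages. Soat1, which esterifies cholesterol for storage, stood at 51.0 ± 3.47 CPM per kilobase in aged and 50.4 ± 1.83 in young mice (mean ± SD, n = 6 each). Srebf2, the gene of SREBP-2, stood at 47.3 ± 7.95 and 52.6 ± 6.60 CPM per kilobase. These neighbours changed places between the ages, and the mean of Soat1 lay within the SD of Srebf2 at both. At the low end in aged mice stood Acat2 (0.521 ± 0.165 CPM per kilobase), Lss (0.753 ± 0.214), Nr1h3 (1.27 ± 1.28) and Dhcr7 (1.31 ± 0.357). Among the synthesis enzymes, Ebp, Sc5d and Hmgcs1 were the most abundant per length, at 20.6 ± 1.72, 16.4 ± 3.21 and 15.9 ± 4.35 CPM per kilobase in aged mice, and the values of Sc5d and Hmgcs1 were not separable.

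**Figure D2:**
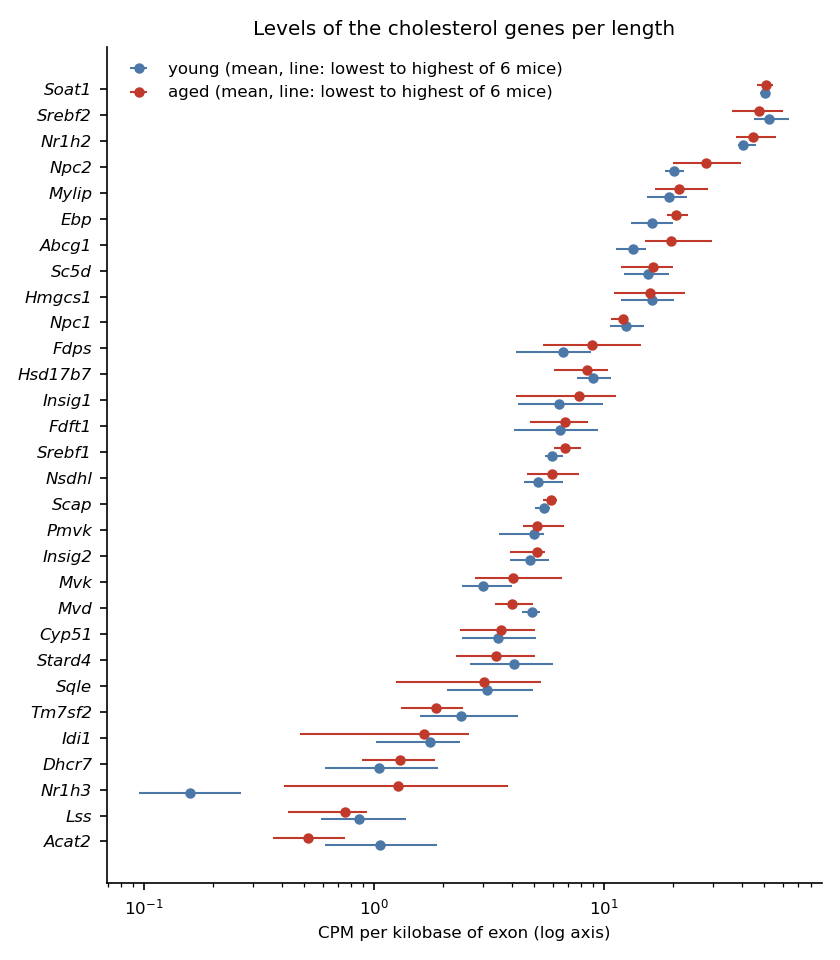
Mean level per gene length in young and aged M-MDSCs, in CPM per kilobase of exon on a log axis, with lines from the lowest to the highest of 6 mice. Soat1, Srebf2 and Nr1h2 lead at both ages, and only Nr1h3 shows lines that do not meet between the ages.

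Promoters are shown for Npc2, Ebp and Acat2, which were called, and for Hmgcs1, because they hold letters that factors of this pathway can read. RefSeq (GRCm38.p6) windows from 250 bases before to 50 bases after the transcription start were at hand for 24 of the 30 genes, in 33 windows, the others being Abcg1, Sqle, Fdft1, Fdps, Stard4 and Npc1. Capitals mark, on either strand, the CCAAT box read by NF-Y (CCAAT or ATTGG), the GC box read by SP factors (GGGCGG or CCGCCC) and a sterol regulatory element (TCACNCCAC). Matches of these motifs did not overlap each other in the windows printed. Npc2 (chr12:84773063-84773362, minus strand), Ebp (chrX:8193463-8193762, minus strand) and Acat2 (chr17:12960676-12960975, minus strand) passed the test between the ages. Hmgcs1 (chr13:119690101-119690400, plus strand) did not, and was added after the search since its window held the sterol regulatory element.
Npc2: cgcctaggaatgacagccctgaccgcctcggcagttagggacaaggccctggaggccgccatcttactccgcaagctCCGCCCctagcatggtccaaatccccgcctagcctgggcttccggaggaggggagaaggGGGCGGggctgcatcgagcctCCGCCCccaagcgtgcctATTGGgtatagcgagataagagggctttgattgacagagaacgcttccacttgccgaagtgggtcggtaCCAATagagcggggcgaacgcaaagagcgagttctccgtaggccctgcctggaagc
Ebp: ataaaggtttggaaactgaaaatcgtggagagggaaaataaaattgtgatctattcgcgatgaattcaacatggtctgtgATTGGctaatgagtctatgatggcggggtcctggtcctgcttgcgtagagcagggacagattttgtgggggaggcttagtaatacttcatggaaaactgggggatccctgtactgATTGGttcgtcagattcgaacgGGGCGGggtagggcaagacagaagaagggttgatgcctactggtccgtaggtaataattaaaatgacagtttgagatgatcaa
Acat2: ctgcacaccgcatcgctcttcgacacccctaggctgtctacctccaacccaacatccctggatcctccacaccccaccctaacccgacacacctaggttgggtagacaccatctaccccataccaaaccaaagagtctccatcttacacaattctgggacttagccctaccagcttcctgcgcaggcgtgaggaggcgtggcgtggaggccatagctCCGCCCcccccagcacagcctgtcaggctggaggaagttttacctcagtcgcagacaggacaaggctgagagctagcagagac
Hmgcs1: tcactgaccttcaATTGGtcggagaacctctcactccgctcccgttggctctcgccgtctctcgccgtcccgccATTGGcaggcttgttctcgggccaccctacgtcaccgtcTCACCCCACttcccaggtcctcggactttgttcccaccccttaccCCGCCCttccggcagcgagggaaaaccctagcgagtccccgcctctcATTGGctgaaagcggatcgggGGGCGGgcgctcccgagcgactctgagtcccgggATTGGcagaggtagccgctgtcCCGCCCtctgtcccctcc

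Of the 17 synthesis enzymes, 14 had a window in the table, and 13 of these had a CCAAT box and 13 a GC box. Counted over their 17 windows, a CCAAT box was present in 76.5% and a GC box in 82.4%, whereas 37.4% and 35.7% of all 32851 promoter windows had them. Acat2 was the enzyme without a CCAAT box, and Pmvk the enzyme without a GC box. TCACNCCAC was found in Hmgcs1 alone among the 24 genes with a window, beginning at -137 from the start, and in 1.24% of all windows. The E-box CACGTG was present in Dhcr7, Hsd17b7, Sc5d, Insig1 and Scap (7.15% of all windows had it). No member's window held the DR4 repeat read by the LXR receptors, which only 5 of all windows held. Such matches describe letters in a window and were not tested against the expression data.

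Of the 17 synthesis enzymes, Ebp was higher and Acat2 lower in aged mice (11.8%, beside 45.4% of all genes called), the other 15 did not pass the test, and the median log2 fold change was 0.04. Without aged mice 1 and 7, left out after seeing the data, 5 of the 17 were called (29.4%, beside 46.4% of all genes), 3 higher and 2 lower, with a median of 0.16. In the 7 steps up to the isoprenoids, Acat2 (chr17:12943042-12960725 in mm10, 9 exons), the cytosolic thiolase that joins the first acetyl-CoA units, was lower. Its level ran from 0.756 to 1.56 CPM in aged mice (median 1.05) and from 1.27 to 3.90 CPM in young mice (median 2.18). Aged mouse 7 had the highest aged value, and the ages overlapped through it and aged mice 4 and 5. The log2 fold change was -0.96 (SE 0.31, edgeR adjusted p = 0.0190). It rests on 7 to 25 counts per aged library and 9 to 24 per young library, and since Acat3 is a near-identical neighbour its value is uncertain.

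Other enzymes of the early steps had fold changes smaller than their spread allowed to call. Mvk, mevalonate kinase, had the highest fold change of these steps, at 4.57 to 10.9 CPM in aged mice (median 5.81) and 4.01 to 6.64 CPM in young mice (median 4.53). The groups overlapped, with aged mouse 5 well above the rest, and the log2 fold change was 0.44 (SE 0.21, edgeR adjusted p = 0.0999). Fdps, which makes farnesyl diphosphate, had a similar value of 0.43 (SE 0.23, edgeR adjusted p = 0.136). Without aged mouse 7 both passed, Mvk at 0.54 (edgeR adjusted p = 0.0395) and Fdps at 0.55 (0.0445), while without aged mouse 5 they were at 0.25 (0.270) and 0.23 (0.362). Mvd, mevalonate diphosphate decarboxylase, went the other way at 6.30 to 9.23 CPM in aged mice and 8.23 to 9.82 CPM in young mice, with a log2 fold change of -0.29 (SE 0.12, edgeR adjusted p = 0.0647). Mvd passed without aged mouse 1 (-0.36, edgeR adjusted p = 0.0276) or without aged mouse 5 (-0.35, 0.0365). With all mice limma-voom called it too (-0.31, limma-voom adjusted p = 0.0497). Hmgcs1, which makes HMG-CoA and carries the element shown above, was at 36.5 to 73.9 CPM in aged mice (median 49.4) and 39.1 to 66.4 CPM in young mice (median 52.9). Its groups covered nearly the same range, and its log2 fold change was -0.02 (SE 0.17). Pmvk (0.04, SE 0.14) and Idi1 (-0.07, SE 0.34) were also near to 0, with a wide error for Idi1.

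In the 10 steps from squalene to cholesterol, Ebp alone passed the test. EBP is the isomerase that shifts a double bond within the sterol ring. Its gene (chrX:8185331-8193512, 5 exons) was found at 32.8 to 40.6 CPM in aged mice (median 35.5) and 22.9 to 34.8 CPM in young mice (median 28.0). Only young mouse 10 reached into the aged range, and the log2 fold change was 0.34 (SE 0.10, edgeR adjusted p = 0.0124). After a correction for gene length it was 0.26 (edgeR adjusted p = 0.0549), or 0.16 relative to the median of all genes. Tm7sf2, a sterol reductase, had the lowest fold change of these steps, -0.41 (SE 0.26, edgeR adjusted p = 0.210). Its young values ran from 2.35 to 6.28 CPM, with young mice 5 and 6 far above the other young mice, and its aged values from 1.94 to 3.63 CPM. Tm7sf2 shares 9 exon bases with Vps51 on the same strand. Dhcr7 (0.33, SE 0.27), which completes cholesterol, and Nsdhl (0.22, SE 0.13) were above 0 without passing. Sqle, the squalene oxidase and a controlled step, had a log2 fold change of -0.0016 with an SE of 0.31, and the other 5 enzymes (Fdft1, Lss, Cyp51, Hsd17b7 and Sc5d) lay between -0.19 and 0.08.

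The genes around the SREBP factors did not pass the test in any of the 5 cases. edgeR gave 1 of them an unadjusted p under 0.05, and neither DESeq2 nor limma-voom called any, while after the gene length correction 2 of the 5, Srebf1 and Scap, were called higher (40.0%, beside 34.1% of all genes, and 45.4% without the correction). Srebf1, the gene of the SREBP-1 proteins that favour fatty acid synthesis, came nearest, at 26.3 to 34.2 CPM in aged mice (median 28.7) and 23.8 to 28.5 CPM in young mice (median 24.5). The ranges overlapped, and the log2 fold change was 0.19 (SE 0.09, edgeR adjusted p = 0.0752), or 0.23 without aged mouse 4 (0.0495) or young mouse 9 (0.0490). Srebf2 was at 165 to 276 CPM in aged mice (median 217) and 206 to 294 CPM in young mice (median 230), with aged mouse 7 the lowest of all. Its log2 fold change was -0.15 (SE 0.11, edgeR adjusted p = 0.276). The sterol sensor gene Scap (0.10, SE 0.07) and the retention factor genes Insig1 (0.32, SE 0.25) and Insig2 (0.10, SE 0.12) were above 0 without passing. Insig1, itself raised by SREBP, ran from 11.01 to 30.0 CPM in aged mice and from 11.2 to 26.3 CPM in young mice.

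Ratios within a mouse, taken between counts per exon length, do not depend on the scaling of libraries. They were compared for 4 pairs by exact two-sided permutation tests over the 12 mice, with adjustment over the 4. The log2 ratio of Srebf1 to Srebf2 was -2.79 ± 0.33 in aged and -3.14 ± 0.16 in young mice (SD, n = 6 each), a difference of 0.35 (exact permutation p = 0.0238, adjusted 0.0317), and the groups overlapped. Without aged mouse 1 or 7, or young mouse 1, 2, 6 or 10, its unadjusted exact p lay between 0.0519 and 0.0693, and leaving out aged mouse 7 lowered the difference to 0.22. The ratio of Insig1 to Insig2 differed by 0.18 (exact permutation p = 0.550, adjusted 0.550). The ratio of Npc1 to Npc2, the 2 proteins that pass cholesterol out of the lysosome, fell by 0.47, from -0.70 ± 0.12 in young to -1.17 ± 0.29 in aged mice (n = 6 each, exact permutation p = 0.00866, adjusted 0.0173). The highest aged value, -0.74, lay above the lowest young value, -0.79. Npc1 (5209 bases) is longer than Npc2 (3262 bases), and the ratio was not corrected for a trend with length. After the gene length correction the log2 fold changes of Npc1 and Npc2 were 0.25 and 0.57, beside -0.04 and 0.46 without it.

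Of the 6 genes of uptake, transport, storage and efflux, 2 were called, both higher (33.3%, beside 45.4% of all genes called and 22.4% called higher). After the gene length correction 3 of the 6 were called, Soat1 being the addition, all higher, beside 34.1% of all genes called. Abcg1 (chr17:31057694-31117981, 15 exons), the pump that passes cholesterol to HDL, was at 87.6 to 172 CPM in aged mice (median 101) and 66.0 to 89.2 CPM in young mice (median 81.5). Aged mouse 7 was far the highest, and the lowest aged mouse, number 5, fell just below the highest young mouse. The log2 fold change was 0.55 (SE 0.14, edgeR adjusted p = 0.00622). Npc2 (chr12:84754559-84773112, 4 exons), the soluble protein that takes cholesterol from lysosomal vesicles, was at 65.6 to 129 CPM in aged mice (median 85.4) and 60.2 to 73.0 CPM in young mice (median 67.3). Aged mouse 1 was the highest and aged mouse 7 alone lay within the young range. Its log2 fold change was 0.46 (SE 0.13, edgeR adjusted p = 0.00832), and 0.33 was its lowest value when a mouse was left out. The membrane partner Npc1 had nearly equal means, 63.0 ± 3.90 and 65.0 ± 8.23 CPM (SD, n = 6 each), and a log2 fold change of -0.04 (SE 0.08).

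The other 3 genes of this group did not pass. Mylip, a ubiquitin ligase that curbs cholesterol uptake, was at 49.7 to 84.7 CPM in aged mice and 46.0 to 68.7 CPM in young mice, with a log2 fold change of 0.15 (SE 0.13, edgeR adjusted p = 0.346). Stard4, a cytosolic sterol carrier, had the lowest fold change of the group, -0.25 (SE 0.20, edgeR adjusted p = 0.336), at 6.82 to 15.05 CPM in aged and 7.80 to 17.98 CPM in young mice. Soat1 had a log2 fold change of 0.02 with the tightest error (SE 0.06), or 0.29 after the gene length correction (edgeR adjusted p = 0.0158), with 223 to 261 CPM in aged and 229 to 251 CPM in young mice.

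**Figure D3:**
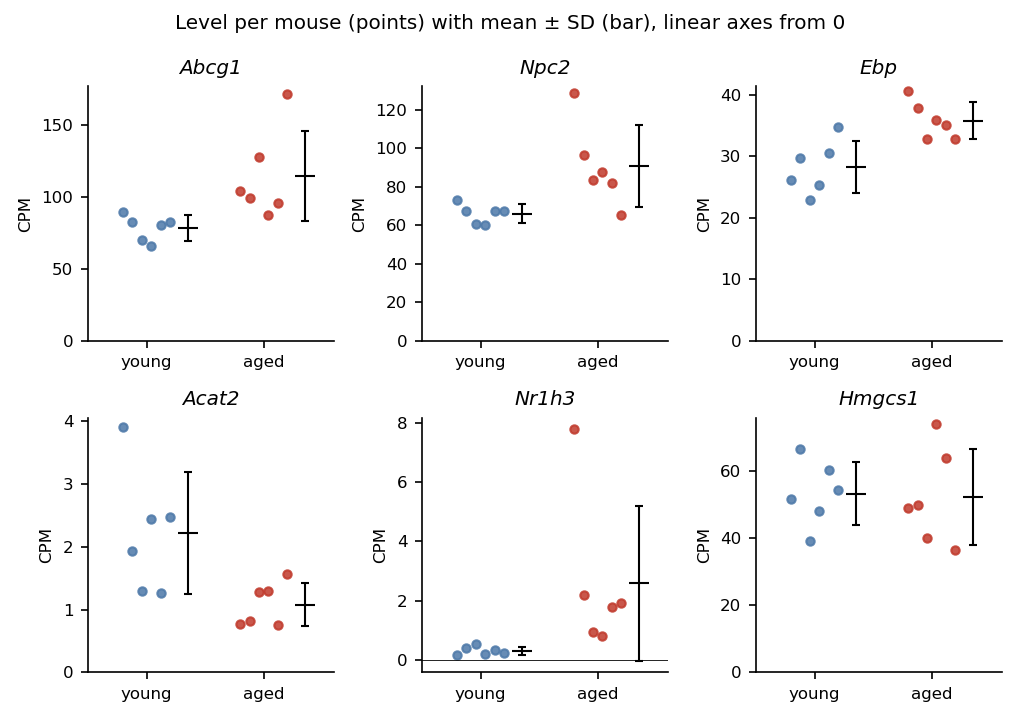
Level in each mouse, in CPM on linear axes, for the 4 called genes, Nr1h3 and Hmgcs1, with the mean ± SD beside the points (n = 6 per age). Nr1h3 alone has no overlap between the ages, with aged mouse 1 at 7.78 CPM, while Hmgcs1 covers like ranges at both ages.

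The LXR receptors differed from each other in level and in pattern. Nr1h2 (LXR beta) was abundant, at 73.6 to 110 CPM in aged and 75.6 to 90.01 CPM in young mice, with a log2 fold change of 0.15 (SE 0.09, edgeR adjusted p = 0.183). Nr1h3 (LXR alpha, chr2:91184061-91195116, 10 exons), the form of macrophages and liver, was scarce, with 9 to 70 counts in each aged library and 1 to 5 in each young library. It stood at 7.78, 2.21, 0.961, 0.831, 1.80 and 1.94 CPM in aged mice 1, 2, 4, 5, 6 and 7, and at 0.195 to 0.542 CPM in young mice. Every aged mouse was above every young mouse. Over mice, the mean log2 level was higher by 2.38 in aged mice (exact two-sided permutation p = 0.00216, the smallest that 6 against 6 can give). Pooled counts, 157 against 15, gave a ratio of 7.48, with an exact 95% interval of 4.40 to 13.7 that covers counting error only. Without the filter edgeR gave a log2 fold change of 2.90 (adjusted p = 0.000869) and DESeq2 gave 2.97 (SE 0.63, adjusted p = 2.54e-05). Aged mouse 1 weighs on the size, since the ratio of mean CPM was 7.95 with it and 4.76 without it. The log2 ratio of Nr1h3 to Nr1h2 rose from -7.76 ± 0.57 to -5.52 ± 1.27 (SD, n = 6 each, exact permutation p = 0.00216, adjusted 0.00866).

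Markers of resident macrophages moved with Nr1h3 among the aged mice. Their summed level was 1007, 329, 130, 84.4, 199 and 214 CPM in aged mice 1, 2, 4, 5, 6 and 7, and the order of the 6 aged mice was the same by Nr1h3 and by these markers. Other summed markers were also highest in aged mouse 1 among aged mice, namely those of adipocytes (54.4 CPM, beside 28.7 in aged mouse 7 and 21.3 in aged mouse 2), of stromal and endothelial cells (86.8 CPM), of B and plasma cells (77.7 CPM), of neutrophil precursors (16.45 CPM), of T and NK cells (12.1 CPM) and of erythroid cells (3.89 CPM). Npc2 was also highest in aged mice 1 and 2, whereas Abcg1 was highest in aged mice 7 and 4. With aged mice 1 and 7 both left out, a choice made after seeing the data, 7 of the 29 genes were called, beside 46.4% of all genes, and Abcg1, Npc2, Ebp and Acat2 were among them, with Mvk and Fdps higher and Mvd lower besides. The part of resident macrophages and of these other cells in the results was not tested.

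Among mice of the same age, a few mice stood high or low for most of the enzymes. Their median coefficient of variation was 24.8% in aged and 26.4% in young mice, beside 13.03% and 14.7% over all genes tested, from 8.36% for Ebp to 48.8% for Sqle in aged mice. This comparison was not matched for level, and counting noise adds more to scarce enzymes such as Acat2 (7 to 25 counts per aged library). Aged mouse 5 had the highest aged value of 11 of the 17 enzymes, where 18.3% of all genes tested had theirs. Aged mouse 7 had the lowest aged value of 15 of the 17, where 23.8% of all genes had theirs. In young mice, mouse 2 was highest for 10 enzymes (17.8% of all genes) and mouse 5 lowest for 12 (23.7% of all genes). Against the mean of their age, the enzymes had a median log2 difference of 0.34 in aged mouse 5, -0.44 in aged mouse 7, 0.36 in young mouse 2 and -0.32 in young mouse 5, while that of all genes lay between -0.0032 and 0.0081.

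Sqle and Idi1 showed this most widely in the aged mice, as seen in the map of differences among mice. Sqle was at 3.44 CPM in aged mouse 7 and 14.7 CPM in aged mouse 5, and Idi1 at 1.38 and 7.48 CPM in the same mice. Tm7sf2 went against the rest in young mice, with its highest value in young mouse 5. Outside the enzymes, Srebf2 (0.37 in aged mouse 5, -0.38 in aged mouse 7, 0.30 in young mouse 2 and -0.21 in young mouse 5), Insig1 (0.59, -0.81, 0.69 and -0.45) and Stard4 (0.59, -0.49, 0.58 and -0.58) differed from their age mean in the same direction. Srebf1 did not follow in aged mouse 7 (0.23), and the widest difference of Scap and of Soat1 in these 4 mice was -0.12. Abcg1 and Mylip were opposite to the enzymes in the aged mice, at -0.34 and -0.28 in aged mouse 5 and 0.62 and 0.44 in aged mouse 7, while in young mice 2 and 5 Abcg1 was at 0.08 and -0.16 and Mylip at -0.08 and -0.04. Depth moved with some mice and not with others. Aged mouse 7 was the deepest library (16300374) and young mouse 2 the shallowest (4613239). Aged mouse 5 was also among the deeper libraries (11787677), and young mouse 1, with 5068845, had an enzyme median of -0.03. The summed level of 14 proliferation genes was also the highest of its age in aged mouse 7 (1300 CPM) and young mouse 5 (1757 CPM). In young mouse 6 it was 1745 CPM, and the enzymes there had a median log2 difference of -0.14, with 5 of the 17 above the age mean. Aged mouse 4 had the lowest sum of the aged mice (620 CPM) and an enzyme median of -0.20. The part of depth and of proliferation in this pattern was not tested.

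**Figure D4:**
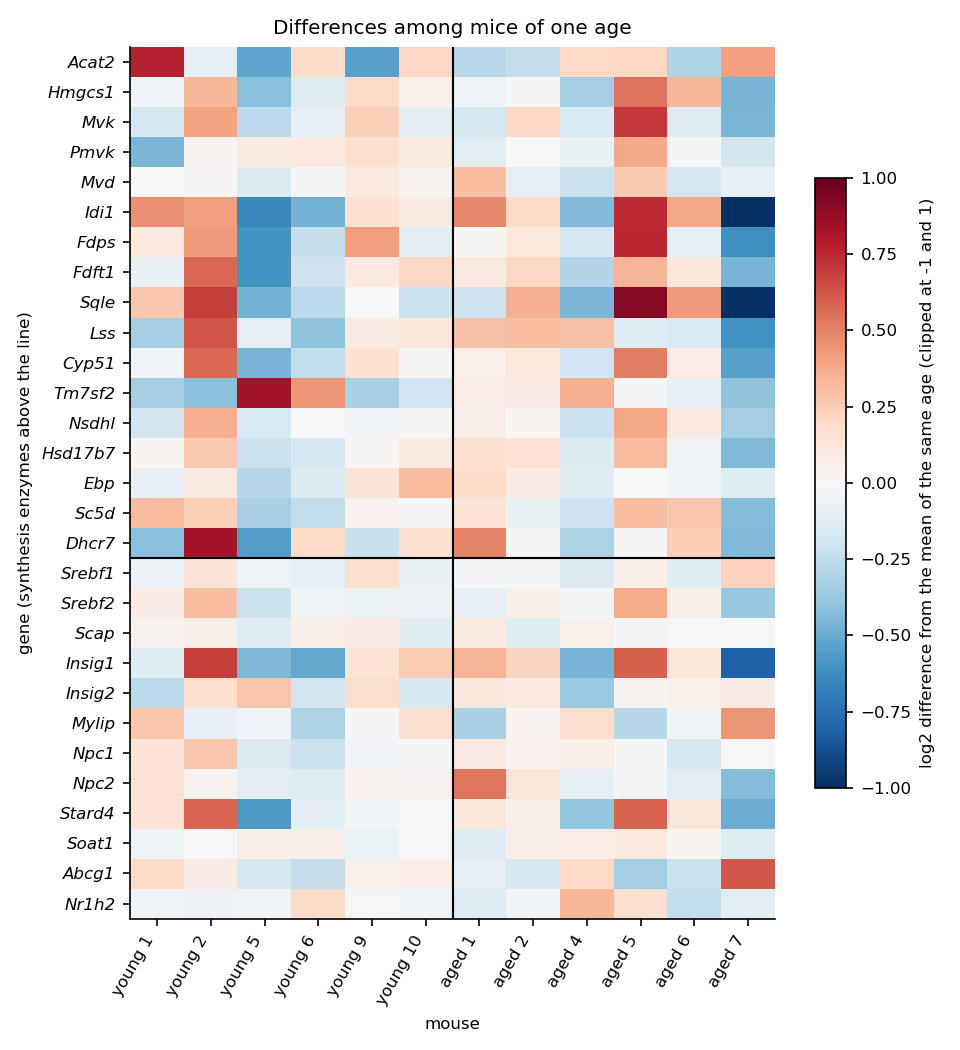
Log2 difference of each gene in each mouse from the mean of the same age (colour, clipped at -1 and 1), for the 29 genes tested (vertical axis) and 12 mice (horizontal axis). Aged mouse 5 and young mouse 2 are mostly red and aged mouse 7 and young mouse 5 mostly blue among the enzymes, with Insig1 and Stard4 alike and Abcg1 and Mylip opposite in the aged mice.

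Gene length bears on the fold changes of this table. Across all genes tested, Spearman's rho of fold change with exon length was -0.48 (a description over genes, which are not replicates), and over the 29 cholesterol genes it was -0.09, at a median length of 2867 bases beside 2890 for all. After a length correction the median of all genes tested moved to 0.10 and that of the 29 to 0.20, and 34.1% of all genes were called (22.9% higher and 11.2% lower). Of the 29, 7 were then called. With the edgeR adjusted p after each fold change, Abcg1 (0.87, 0.000511), Npc2 (0.57, 0.00363), Srebf1 (0.41, 0.00511), Scap (0.32, 0.0109) and Soat1 (0.29, 0.0158) were higher and Acat2 (-0.97, 0.0267) and Mvd (-0.34, 0.0427) lower. Relative to the shifted median, Scap was 0.22 and Soat1 0.18. Ebp lost its call, as given above. After a correction for GC content 4 of the 29 were called, 3 higher and 1 lower, beside 44.3% of all genes, 27.5% higher and 16.8% lower. With library totals in place of TMM scaling, 5 of the 29 were called, Mvd being the addition, and the median of the 29 was -0.01 and that of the 17 enzymes -0.05, beside -0.08 for all genes, of which 45.6% were then called (17.3% higher and 28.4% lower).

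**Figure D5:**
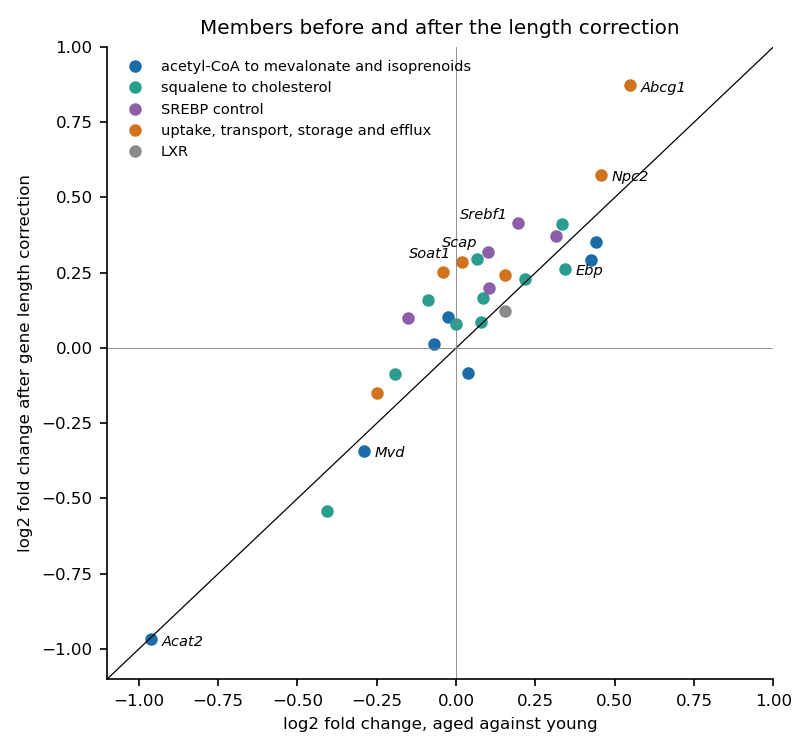
Log2 fold change of the 29 cholesterol genes before (horizontal axis) and after (vertical axis) the correction for gene length, with the line of equal values and names for genes called in either. Long genes such as Abcg1 (0.55 to 0.87) lie above the line, and Ebp (0.34 to 0.26) lies below it.

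Other genes of sterol handling moved in both directions. Of 32 listed beside the 30, 28 were tested and 9 called (32.1%, beside 45.4% of all genes), 6 higher and 3 lower. After the gene length correction 12 of 28 were called (42.9%, beside 34.1% of all genes), 10 higher and 2 lower, and after the GC content correction 12, 9 higher and 3 lower. The widest rise was that of Soat2, the paralogue of Soat1, at 2.06 to 9.97 CPM in aged and 0.642 to 2.75 CPM in young mice (log2 fold change 1.75, SE 0.39, edgeR adjusted p = 0.00239). The widest fall was that of Gramd1a, a carrier of cholesterol from the plasma membrane, at 42.8 to 66.1 CPM in aged and 56.1 to 142 CPM in young mice (-0.74, SE 0.23, edgeR adjusted p = 0.0156). Its medians were nearer to each other, 54.2 CPM in aged and 66.7 CPM in young mice, whose mean was 88.1 ± 40.0 CPM (SD). The remaining called genes were named after their values were seen. Abca1, the efflux pump to lipid-poor apolipoprotein, was at 10.1 to 47.2 CPM in aged and 6.74 to 11.8 CPM in young mice (1.41, SE 0.34, edgeR adjusted p = 0.00368), and 1.06 without aged mouse 1. Lipa, the lysosomal acid lipase that frees cholesterol from its esters, was at 66.6 to 128 CPM in aged and 37.4 to 62.6 CPM in young mice with no overlap (0.69, SE 0.16, edgeR adjusted p = 0.00246). Apoe rose by 1.37 (SE 0.46, edgeR adjusted p = 0.0252) but by 0.62 without aged mouse 1. Lpcat3 (0.46), which remodels phospholipids and is raised by LXR, and Rnf139 (0.36) were higher, and Gramd1b (-0.59) and the SREBP protease gene Mbtps1 (-0.31) lower. Mbtps1 lost its call after the length correction (-0.08).

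Msmo1, a sterol demethylating enzyme named after its value was seen and listed under its older symbol Sc4mol, had a log2 fold change of 0.17 (SE 0.14) and was not called.

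Of 13 listed genes of fatty acid synthesis, 8 were tested and 2 called, both higher, beside 22.4% of all genes called higher. These were Fads1, a desaturase (1.41, SE 0.54, edgeR adjusted p = 0.0459), and Scd2 (0.93, SE 0.35, edgeR adjusted p = 0.0384), which is named after its value was seen. Scd2 reached 45.4 CPM in a single aged mouse, number 7, and was 0.36 without it, and Fads1 was 0.61 without aged mouse 1. With library totals in place of TMM scaling, or without aged mice 1 and 7, the only gene called was lower, and 1 higher and 1 lower were called without aged mouse 7. Without young mouse 1, 5 or 9 none of the 8 was called by edgeR, without aged mouse 1 or 2 or young mouse 2, 6 or 10 only 1 was, and limma-voom called 0 at full size, with 0 at an unadjusted p under 0.05. Of 12 genes that use isoprenoids, all were tested and 2 called (16.7%), both lower, beside 23.0% of all genes called lower. After the gene length or the GC content correction 3 were called, 2 higher and 1 lower. Pggt1b, the beta subunit of geranylgeranyl transferase I, was at 5.63 to 10.4 CPM in aged and 10.1 to 13.4 CPM in young mice (-0.55, SE 0.14, edgeR adjusted p = 0.00486). Dhdds, which makes dolichol, was lower without overlap (-0.27, SE 0.07, edgeR adjusted p = 0.00524), and lost its call after the length correction (-0.16).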

How the data were processed

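Total RNA of sorted M-MDSCs was prepared as stranded libraries and sequenced in read pairs on a NovaSeq6000. The authors deposited whole-number counts per gene, made with featureCounts 2.0.0 from exons annotated by UCSC for mm10. Read pairs counted if both mates lay on the same chromosome, with the strand taken as reversed, with mapping quality 60 or more. Which aligner was used is not given in the sources used here. The quality filter leaves out fragments with an uncertain place, and its effect on genes with near copies, such as Acat2, was not measured. A batch is not named in the labels.

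The 29 members that passed filterByExpr (minimum count 10) were tested within the whole table of 9742 genes in edgeR 4.0.16 (R 4.3.3), with TMM scaling, the quasi-likelihood test and Benjamini-Hochberg adjustment at 0.05. Alternatives were DESeq2 1.42.0, limma-voom (limma 3.58.1), other scalings and filters, corrections for gene length and GC content (loess, span 0.5, GC from GENCODE M21 transcripts by symbol for 94.4% of genes tested), thinning to 4613239 counts, a replicate block and each mouse left out. Ratios used log2 of CPM with 0.5 counts added. Depth limits the scarce genes, since 3 counts equal 0.188 to 0.642 CPM. Same-age libraries differed beyond counting noise in each of 30 pairs, so none was counted as a duplicate. Some pairs were much closer than others by chi-square per gene. Young mice 1 and 2 stood at 1.68, 9 and 10 at 2.64 and 5 and 6 at 4.18, while young mice 5 and 9 stood at 36.7. Among aged mice the closest pairs were 1 and 2 (5.22) and 5 and 6 (5.63). The labels number the mice separately and p-values measure the spread between them. If mice that resembled each other shared a preparation, which is not stated, the p-values would not account for it.

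Members, gene lists and marker lists were chosen with earlier results of these data known. Genes named in full were, for each role, those with the smallest adjusted p, the highest and the lowest fold change and those called, and for other lists the called gene with the highest and the lowest fold change at a mean of at least 1 CPM. Promoters came from RefSeq, for 24 of 30 members. Scripts were tested on simulated data. Some genes of the other sterol list are not reported here by name.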

Additional observations from a re-analysis of the deposited data

Results flagged for a closer look

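With 6 mice per age, 7 of 68 groups of values held a mouse whose gap to the nearest other exceeded Dixon's 95% limit for a group of this size, a limit that chance passes in about 5% of groups. Nr1h3 was at 7.78 CPM in aged mouse 1, with 2.21 CPM as the next aged value. Pmvk, phosphomevalonate kinase, was at 10.2 CPM in aged mouse 5, with 7.68 CPM next, and at 5.27 CPM in young mouse 1, with 7.49 CPM next. Nsdhl was at 14.8 CPM in young mouse 2, with 11.5 CPM next. Insig2 was at 11.5 CPM in aged mouse 4, below 15.3 CPM in the nearest aged mouse. Nr1h2 was at 90.01 CPM in young mouse 6, above 78.5 CPM in the nearest young mouse. The log2 ratio of Npc1 to Npc2 was -0.47 in young mouse 2, with -0.71 as the nearest young value.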

How the results depend on the processing

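Abcg1 and Npc2 kept their direction and their call in edgeR under every alternative run for them, as in DESeq2 and limma-voom. Ebp lost its call only after the gene length correction and Acat2 only under the replicate block (-1.30, adjusted p = 0.0523), while Acat2 was not tested with at least 10 counts in every mouse or after thinning. The number of cholesterol genes called was 7 after the gene length correction and 7 with aged mice 1 and 7 left out (chosen after seeing the data), 3 to 5 under the other alternatives and 4 to 6 with each mouse left out in turn. For fatty acid synthesis it was 0 by limma-voom and after thinning, 1 (lower) with library totals and with aged mice 1 and 7 left out, 1 (higher) with at least 10 counts in every mouse, and 0 to 2 with each mouse left out in turn.

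As fitted, fold changes that changed sign belonged to members without a call, and the cause was not tested. After the gene length correction they were 0.10 for Hmgcs1, -0.083 for Pmvk, 0.013 for Idi1, 0.080 for Sqle, 0.16 for Hsd17b7, 0.10 for Srebf2 and 0.25 for Npc1. Since that correction moved the median of all genes to 0.10, relative to it Idi1 was at -0.091, Sqle at -0.023 and Srebf2 at -0.0035, with no change of sign, and Hmgcs1 at 0.00038. The GC content correction moved that median to 0.09 and library totals moved it to -0.08, shifts common to all genes. After the GC content correction they were 0.11 for Hmgcs1, 0.068 for Idi1, 0.13 for Sqle, 0.047 for Hsd17b7 and 0.085 for Npc1. With library totals without TMM they were -0.054 for Pmvk, -0.019 for Cyp51, -0.0067 for Sc5d and -0.073 for Soat1. With aged mice 1 and 7 left out they were 0.11 for Hmgcs1, 0.12 for Idi1 and 0.30 for Sqle. Sqle was at 0.0033 with the size factors of DESeq2 and 0.0073 with at least 10 counts in every mouse, and Fdft1 at -0.063 after thinning. When 1 mouse at a time was dropped, ranges that crossed 0 were -0.15 to 0.069 for Hmgcs1, -0.053 to 0.085 for Pmvk, -0.25 to 0.15 for Idi1, -0.023 to 0.21 for Fdft1, -0.25 to 0.18 for Sqle, -0.055 to 0.19 for Cyp51, -0.082 to 0.016 for Npc1 and -0.00015 to 0.046 for Soat1. The log2 ratio of Srebf1 to Srebf2 ranged from 0.22 to 0.41.

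Replicate numbers 1, 2, 5 and 6 occur at both ages, and whether they mark pairs is not stated. Same-numbered mice did not deviate together (correlations of -0.14, -0.07, -0.24 and -0.25), which cannot exclude a weak effect that they shared. With the replicate block, over 8 mice, 3 cholesterol genes and 2 fatty acid genes (1 higher and 1 lower) were called. Of all genes tested with this block, 35.1% were called. The median of the 17 enzymes was then 0.24 with 13 above 0. Hmgcs1 was at 0.21, Idi1 at 0.38, Sqle at 0.24 and Hsd17b7 at 0.060. The paired ratios were 0.28 for Srebf1 to Srebf2, 2.48 for Nr1h3 to Nr1h2 and -0.64 for Npc1 to Npc2, where 4 pairs cannot give an exact p under 0.125. Depth limits Acat2, Lss, Dhcr7, Tm7sf2 and Nr1h3, whose lowest count in a library was 1 to 11.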
